A study of Mus musculus with 8 samples.

Results

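Dense clusters of chromatin peaks that were more accessible in mutant than in wild-type (WT) embryonic mouse hearts are described here. The members were selected from the list of *Chd4-CMko*-enriched ATAC-seq peaks, regions more open in *Chd4-CMko* than in WT hearts. They were defined by position alone: a member had at least 2 other peaks of that list on its chromosome with centres within 20 kb of its own centre, and members with centres within 20 kb of each other were joined into a cluster. Of 12991 peaks in the list, 1488 (11.5%) were members and 11503 were not, and the members formed 575 clusters. Both lists of the series together held 15736 peaks.

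The study compared whole hearts at E10.5, in mid-gestation, from WT embryos and from *Chd4-CMko* embryos, in which *Chd4* was deleted conditionally in cardiomyocytes. Each genotype had 4 samples of pooled hearts, and the number of hearts per pool was given as 3 in one source and 4 in another. ATAC-seq uses the transposase Tn5 to cut and tag DNA where chromatin is open. The deposited values are 2 lists of peaks, 1 enriched in each genotype, with 1 score per peak and no value per sample, so the membership of the list itself could not be tested against replicate spread here, and the read depth reached in each sample is not given in the lists. The hearts also held cells other than cardiomyocytes, and in whole hearts more open chromatin per cell and more cells with an open site cannot be told apart.

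CHD4 is the ATP-dependent helicase of NuRD, a nucleosome remodeling and histone deacetylase complex that moves nucleosomes and strips acetyl groups from histones. NuRD is best known for closing chromatin and repressing genes. In the developing heart it is known for keeping genes of other muscle types silent in cardiomyocytes. Promoters lie at transcription start sites, whereas enhancers can lie far from them, in introns or between genes, and several regulatory elements of 1 developmental gene often lie close together.

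Peaks from the largest clusters and from clusters with many promoters are shown as DNA, because they hold the motifs that were compared between members and the other peaks. Each is a whole peak of 151 bases on the forward strand of mm10 (GRCm38), lies outside annotated exons and is written 5′ to 3′. Capitals mark matches to a searched motif on either strand. For NFY this was CCAAT, for the KLF family the box GGGNGTGGC, for factors of the GATA family the letters AGATAAG and for those of the TEAD family ACATTCC. For AP-1, a dimer of FOS and JUN proteins, it was TGANTCA, and the form of the E-box that was searched, which basic helix-loop-helix proteins bind, was CAGCTG.
Tbx5 to Rbm19 interval, first peak, chr5:119964906-119965056: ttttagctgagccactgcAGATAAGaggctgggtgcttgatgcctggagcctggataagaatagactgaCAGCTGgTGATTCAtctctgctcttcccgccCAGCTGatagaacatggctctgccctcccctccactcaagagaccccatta
Tbx5 to Rbm19 interval, sixth peak, chr5:120014062-120014212: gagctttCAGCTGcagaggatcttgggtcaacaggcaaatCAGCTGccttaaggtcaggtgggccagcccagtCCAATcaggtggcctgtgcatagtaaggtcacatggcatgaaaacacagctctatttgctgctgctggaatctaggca
Bmp7, last peak, chr2:172889854-172890004: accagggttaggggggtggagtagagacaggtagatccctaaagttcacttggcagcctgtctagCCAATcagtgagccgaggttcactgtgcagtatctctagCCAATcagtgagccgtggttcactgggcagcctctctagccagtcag
Adgrb2, intronic peak, chr4:130001815-130001965: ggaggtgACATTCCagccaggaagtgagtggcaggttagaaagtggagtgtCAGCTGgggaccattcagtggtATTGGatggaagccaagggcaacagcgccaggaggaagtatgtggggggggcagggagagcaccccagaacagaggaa
Hoxa4, promoter peak, chr6:52191894-52192044: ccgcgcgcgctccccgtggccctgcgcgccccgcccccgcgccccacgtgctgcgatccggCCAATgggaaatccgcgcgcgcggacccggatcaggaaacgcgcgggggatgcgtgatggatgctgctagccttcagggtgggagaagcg
Bdkrb2 cluster, first peak, chr12:105511263-105511413: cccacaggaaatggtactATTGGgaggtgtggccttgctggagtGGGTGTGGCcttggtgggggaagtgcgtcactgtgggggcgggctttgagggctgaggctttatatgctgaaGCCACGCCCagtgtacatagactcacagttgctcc
Tead3, intronic peak, chr17:28340765-28340915: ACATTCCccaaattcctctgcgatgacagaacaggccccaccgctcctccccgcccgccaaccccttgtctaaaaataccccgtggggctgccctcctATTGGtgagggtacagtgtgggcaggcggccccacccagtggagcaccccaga
The first peak of the *Tbx5* to *Rbm19* interval held a GATA match, an AP-1 match and 2 E-boxes, and the *Bmp7* peak held 2 CCAAT matches. The *Tead3* peak itself began with a TEAD match. A match describes the letters only and does not show that a factor was bound there.

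Most clusters were small. A member needs 2 neighbours, so a peak at the rim of a cluster with only 1 neighbour is not itself a member. There were 506 such edge peaks within 20 kb of a member, and 177 clusters therefore held 1 member and 33 held 2. Counting edge peaks, every one of the 575 clusters held at least 3 peaks: 407 held 3, 111 held 4, 34 held 5 and the largest held 10. Counting members alone, 365 clusters held 3 or more, together 1245 members: 271 clusters held 3, 58 held 4, 26 held 5 and 10 held 6 to 8. These 365 clusters spanned a median of 15.8 kb, from 1.02 kb to 70.6 kb. Neighbouring members of a cluster were a median of 6759 bp apart (quartiles 3351 and 11236 bp, 913 gaps), against 65772 bp between neighbouring peaks of the whole list. Of these gaps, 95 (10.4%) were no longer than 1 kb, so that both peaks may belong to 1 regulatory element. The spacing follows from the rule and is a description.

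**Figure D1:**
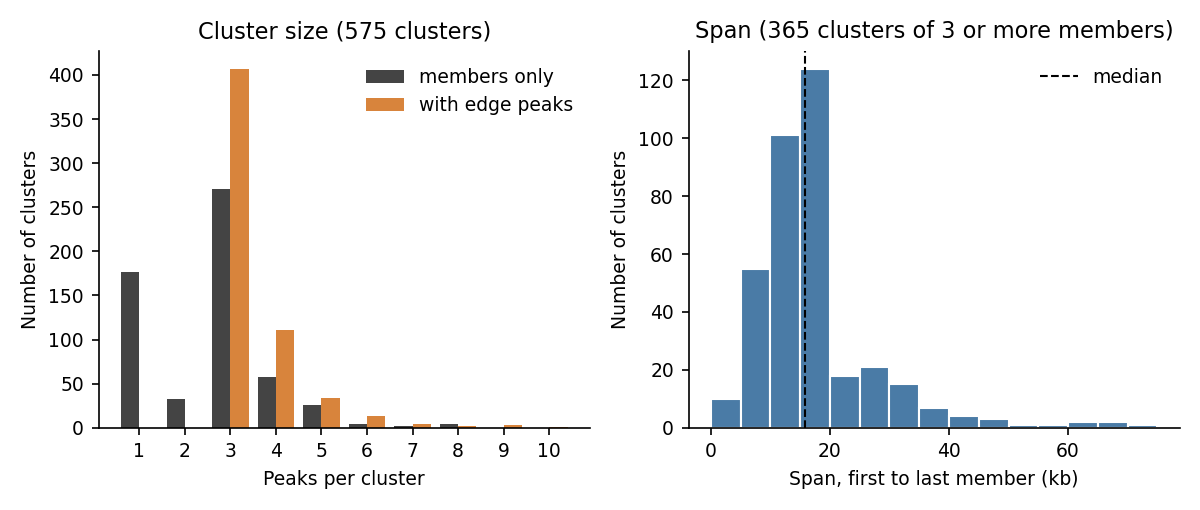
Left, number of clusters (vertical axis) by number of peaks per cluster (horizontal axis), counting members only (dark bars) or members and edge peaks (orange bars); 271 of 575 clusters held exactly 3 members and 407 held exactly 3 peaks with edge peaks. Right, number of clusters by the span from first to last member in kb for the 365 clusters of 3 or more members, with the median of 15.8 kb as a dashed line.

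Peaks on both sides of the limit are compared here as a description. The 1149 members with exactly 2 other peaks within 20 kb had a median score of 79, and the 3488 peaks with exactly 1 had a median of 70. Their promoter shares were 36.0% and 34.3%, and their GC contents were 58.5% and 57.7%. The 215 members whose second nearest peak was 18 to 20 kb away had a promoter share of 28.8%, and the 222 peaks just outside, at 20 to 22 kb, had 31.1%. Their median scores were 68 and 73.25, so by distance the peaks just inside had the lower scores, whereas by the number of neighbours they had the higher ones.

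The score is the only value the files give for each peak. It comes with the list that the members were selected from, and the sources used here do not say how it was computed or on what scale. It is therefore described without a test. Members had a median score of 84 (quartiles 52 and 143.5) and the remaining peaks had 60 (39.5 and 105.5). Promoter members had a median of 128.5, against 94.5 for the remaining promoter peaks. Members outside promoters had 69.5, against 52.5 outside promoters among the remaining peaks. Members thus had the higher median in both classes. Within a cluster of 3 or more members, the highest score was a median of 2.33 times the lowest. In 177 such clusters with promoter and other members together, the highest score belonged to a promoter member in 108 (61.0%), while 47.1% of the members of these clusters were promoter peaks.

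Of the 4 clusters with 8 members, the shortest lay at *Adgrb2*, an adhesion G protein-coupled receptor of the brain, and at *Spocd1* beside it (chr4:129952216-130006791). Its 8 members had scores of 43, 284, 89.5, 132.5, 187.5, 307, 68 and 151.5 in genomic order. The 2 highest scores, 307 and 284, were promoter peaks, the former 2657 bp from a start site of *Adgrb2* and the latter over a start site of the non-coding gene *1700003M07Rik*. GC content ran from 51.7% to 76.8% within this cluster.

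The second cluster of 8 lay at *Grin2c*, an NMDA receptor subunit, and in the neighbouring genes *Tmem104* and *Fads6* (chr11:115227100-115282929). Its scores were 143, 144.5, 82.5, 83.5, 120, 207.5, 126.5 and 58.5. The peak over the *Grin2c* start site scored 126.5 and had a GC content of 80.8%, the highest in the cluster, whereas the highest score lay over a *Grin2c* exon 5024 bp from the nearest start site. With 2 edge peaks this cluster reached 10 peaks over 88.4 kb, the most of any cluster.

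The third cluster of 8 stretched upstream of *Bdkrb2*, the bradykinin B2 receptor (chr12:105511263-105572902). Its scores were 42, 68, 45.5, 134, 99.5, 206, 157.5 and 78. Only the first 2 members were promoter peaks, both near the non-coding gene *AU015791*, and only the last lay inside *Bdkrb2*. The 5 members between them were intergenic.

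The fourth cluster of 8 lay in an interval without protein-coding start sites between *Tbx5*, a core cardiac transcription factor, and *Rbm19*, an RNA-binding protein of ribosome assembly (chr5:119964906-120031876). Its scores were 117, 49, 48, 77.5, 29.5, 64, 38 and 37, the lowest of the 4 clusters of 8 by median (48.5). All 8 members were intergenic, and the nearest protein-coding start site to each was 84589 to 137827 bp away. The first member had *Tbx5* as its nearest coding gene, at 128751 bp, and the other 7 had *Rbm19*. Distance does not show which gene, if any, such a peak acts on.

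Promoter peaks made up most of a cluster with 7 members at *Pcsk4*, *Reep6*, *Adamtsl5* and *Plk5* (chr10:80305048-80371904). *Pcsk4* encodes a proprotein convertase of germ cells and *Plk5* a polo-like kinase family protein. Its scores were 170, 231, 303.5, 359, 105, 227.5 and 242, and 6 of the 7 were promoter peaks.

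There were 4 clusters with 6 members. The cluster inside *Sez6l*, a neuronal membrane protein (chr5:112460219-112493788), had scores of 57, 62.5, 50.5, 55.5, 67.5 and 212. The cluster at *Axin2*, a feedback inhibitor and widely used target gene of Wnt signaling (chr11:108906830-108947782), had scores of 54.5, 63.5, 265, 95, 103.5 and 66.5. In *Axin2* the highest score lay over the start site, whereas in *Sez6l* it lay in an intron 18511 bp from the start site. The cluster at *Rasal1*, a Ras GTPase-activating protein, and *Cfap73* (chr5:120634262-120677781) had scores of 77.5, 264.5, 205.5, 90.5, 86 and 216.5. The cluster at *Bmp7*, a secreted bone morphogenetic protein that signals in the embryonic heart (chr2:172844004-172890004), had scores of 84, 75, 70, 193.5, 123.5 and 212.5. Its first 3 members lay outside the gene and its last 3, which had the higher scores, inside it, and none was a promoter peak.

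**Figure D2:**
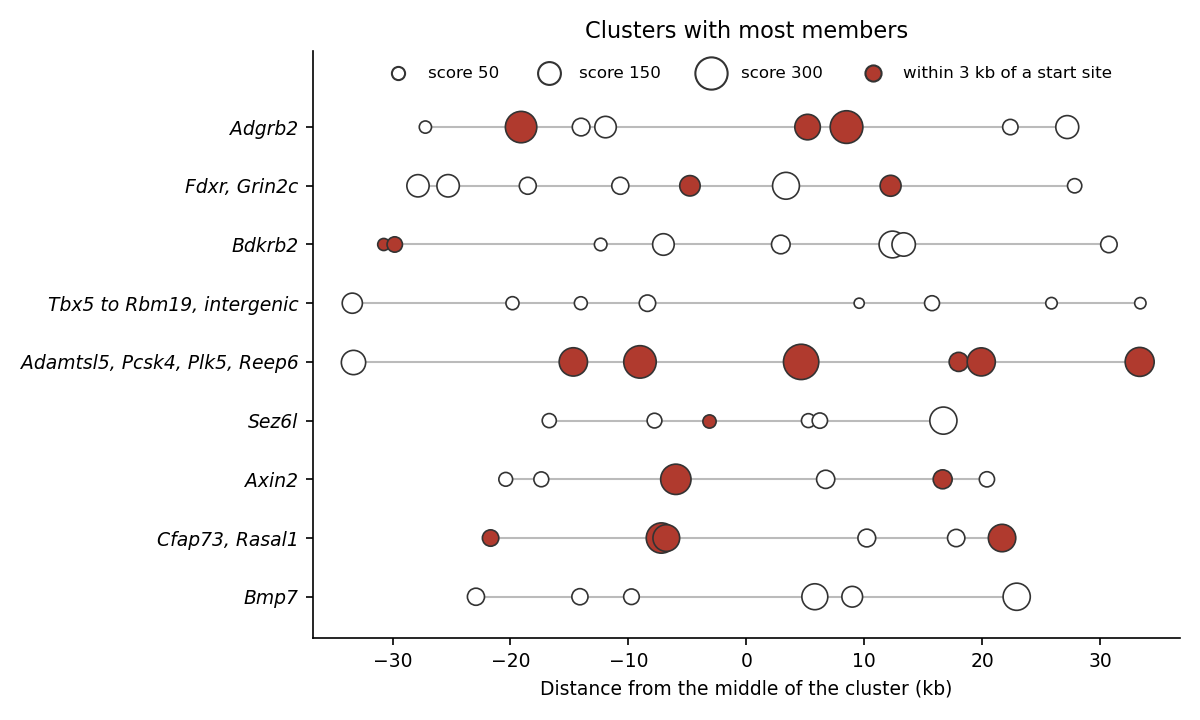
Members of 9 of the 10 clusters with most members, 1 row per cluster, placed by distance in kb from the middle of the cluster; circle area grows with the peak score and filled circles lie within 3 kb of a start site. The *Tbx5* to *Rbm19* and *Bmp7* clusters hold no promoter peak, and 6 of 7 members of the *Pcsk4* cluster are promoter peaks.

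Clusters also differed in how they sat on genes. In 125 of the 365 clusters of 3 or more members (34.2%), every member lay inside 1 protein-coding gene, and 48 of these held no promoter peak. Among these, after *Sez6l*, 7 clusters held 5 members, and the 4 shortest of them lay in *Dlgap3*, *Shank1*, *Grip1* and the model *Gm20388*. The others, listed to complete the 7, lay in *Srcin1*, *2900026A02Rik* and *Dgki*, the first and last of which were named after their values were seen. *Dlgap3*, *Shank1* and *Grip1* encode scaffold proteins of synapses. The *Dlgap3* cluster was the densest of those with 5 or more members, at 0.281 members per kb, but its scores were low, from 32 to 80.5. The *Shank1* cluster had scores from 103 to 208 and 4 promoter peaks among 5. *Gm20388* is a read-through model of 4.43 Mb on chromosome 8 that contains 71 other coding genes. It held 34 members in 13 clusters, and without it 119 clusters of 3 or more members (32.6%) lay inside 1 gene. *Dlgap3* and *Grip1* each had 8 members within the gene or its promoter, and *Cacna1a*, a neuronal calcium channel, *Cdh23*, a cadherin of hair cells, *Fgfr2*, a fibroblast growth factor receptor, and *Mdga1*, a cell adhesion protein, each had 7. These counts were not scaled to gene length. A further 76 of the 365 clusters had no member inside a coding gene and no promoter peak.

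Other clusters joined the promoters of several genes. Of the 365, 150 had 1 protein-coding gene with a start site within 3 kb of a member, 41 had 2 and 7 had 3 or more. After the *Pcsk4* cluster, the most genes were in the *Fxyd* family (*Fxyd1*, *Fxyd3*, *Fxyd5* and *Fxyd7*, chr7:31034884-31068064), small subunits that tune the sodium pump. Its 4 members had scores of 37.5, 172, 252 and 48.5, the higher 2 over the start sites of *Fxyd7* and *Fxyd1*. The cluster in the *Hoxa* locus (chr6:52191894-52217634) had scores of 137, 84, 100 and 90 at *Hoxa4*, *Hoxa5* (2 peaks) and *Hoxa7*. These homeobox genes set position along the body axis. The cluster at *Slc30a3*, a zinc transporter of synaptic vesicles, and *Cad*, an enzyme of pyrimidine synthesis, and the cluster at *Ephb2*, an ephrin receptor, were the next densest after *Dlgap3*, and the highest median score among clusters of 5 or more members, 261.5, was at *Tead3*, a TEAD transcription factor, and *Tulp1*. The cluster at *2900026A02Rik* followed the *Pcsk4* cluster by that measure, with a median of 198.

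Across the 365 clusters the mean GC content of a cluster ran from 43.0% to 78.1%. The 135 clusters without a promoter member had a median of 55.2%, the 177 with some promoter members had 59.6% and the 53 made only of promoter peaks had 66.2%. The median of the clusters' median scores was 65.5, 94.5 and 150 in the same order. Differences between clusters accounted for 34.8% of the variance of GC content and for 39.5% of that of log2 score among these 1245 members, so members of 1 cluster resembled each other more than members of different clusters, yet most of the variation lay within clusters.

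Members lay at promoters more often than the other peaks of the list. A promoter peak is here one within 3 kb of an annotated start site of any gene. Of the members, 549 (36.9%) were promoter peaks, against 3463 of the remaining peaks (30.1%), a difference of 6.79 percentage points (95% interval 3.51 to 10.1). The intervals of differences treat neighbouring peaks as 1 unit and cover the spread between genomic neighbourhoods, not between embryos. For start sites of protein-coding genes the shares were 30.2% and 22.1%, a difference of 8.04 points (4.91 to 11.2). Fewer members were intronic (29.9% against 33.4%, a difference of −3.49 points, from −6.78 to −0.204) and fewer were intergenic (28.3% against 32.6%, a difference of −4.27, from −7.79 to −0.753). The intervals for exons and untranslated regions outside promoters included 0. With peaks no more than 1 kb apart joined first, the promoter difference was 3.33 points (−0.0238 to 6.68), and the intervals for intronic and intergenic peaks included 0 as well.

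Members also lay where genes were denser. On average 1.05 ± 1.09 (SD, n = 1488) protein-coding genes had a start site within 20 kb of a member, against 0.783 ± 0.956 (SD, n = 11503) for the remaining peaks, a difference of 0.262 genes (0.166 to 0.357). No such start site lay within 20 kb of 34.4% of the members and 46.3% of the remaining peaks. The share of peaks that were members was 8.77% where no coding gene lay within 20 kb, 12.6% with 1 gene, 14.6% with 2 and 18.9% with 3. It was 15.8% with 4 genes (30 of 190 peaks), 22.7% with 5 (15 of 66) and 23.3% with 6 or more (7 of 30), so the order was not steady among these smaller classes. When the remaining peaks were weighted to the members' number of genes within 20 kb, the promoter difference was 1.23 points (−1.27 to 3.72). A coding start site within 3 kb of a peak is also counted among the genes within 20 kb, so this weighting partly holds promoter status itself fixed. Whether gene density accounts for the promoter difference was not tested.

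Members were richer in G and C. The mean GC content was 59.0% ± 8.20 (SD, n = 1488) in members and 56.4% ± 8.55 (SD, n = 11503) in the remaining peaks, a difference of 2.60 points (2.03 to 3.17). The difference was 1.73 points among promoter peaks (0.762 to 2.69) and 2.25 among the others (1.75 to 2.75), so it was present in both classes. Members held 4.996 CpG dinucleotides per peak and the remaining peaks 4.03. The 20 kb around each peak, with the peak itself left out, had 49.1% GC for members and 45.9% for the remaining peaks, a difference of 3.24 points (2.93 to 3.55). When the remaining peaks were weighted to the members' local GC, the difference in the peaks themselves was −0.0436 points (−0.537 to 0.450). Repeats covered less of the members, 13.3% of the bases against 17.2%, and 5.51% of the members were mostly repeat (over 50% of their bases), against 10.8%.

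Both measures moved with the number of neighbours. Peaks with 0, 1, 2, 3 and 4 or 5 other peaks within 20 kb had promoter shares of 28.3%, 34.3%, 36.0%, 40.9% and 35.4%. GC content was 55.8%, 57.7%, 58.5%, 60.7% and 60.1% in the same classes. Only 65 peaks had 4 or 5 neighbours, and the 95% Wilson interval of their promoter share, 24.9% to 47.5%, covered those of all the other classes. Wilson intervals take each peak as independent, unlike the intervals of the differences, and can be too narrow for peaks that share clusters. Peaks with 1 neighbour, which are not members, already had higher values than peaks with none.

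**Figure D3:**
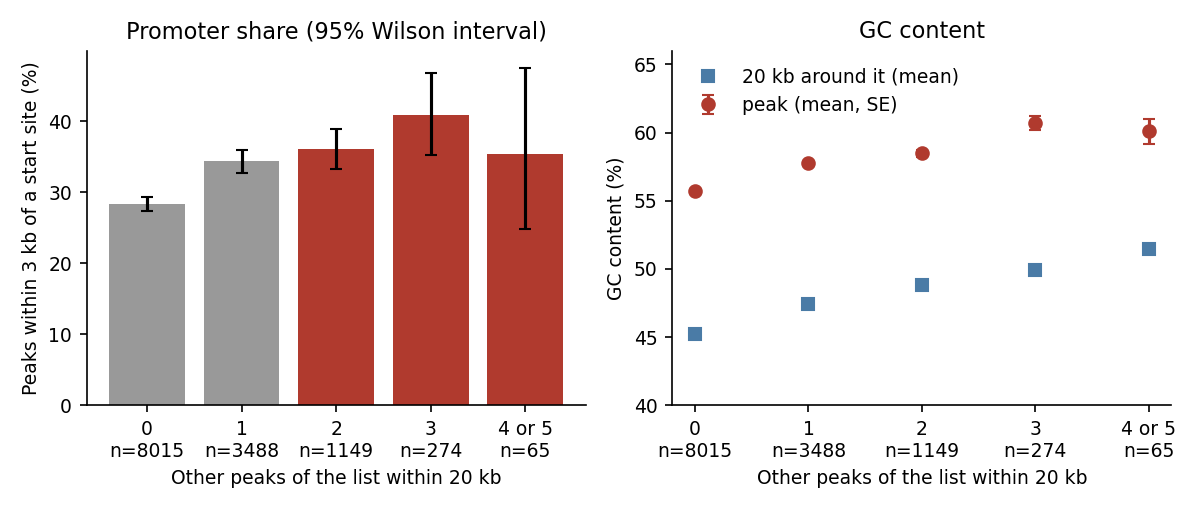
Left, share of peaks within 3 kb of a start site in percent (bars, with 95% Wilson intervals) by the number of other peaks within 20 kb; grey bars are peaks outside the clusters' members and red bars are members. Right, mean GC content in percent of the peaks (circles, with SE) and of the 20 kb around them (squares). Local GC rises from 45.2% with no neighbour to 51.4% with 4 or 5. The Wilson intervals and SE take each peak as independent.

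Short motifs were compared because they are the sequences that transcription factors recognise. NFY binds CCAAT boxes of promoters, GATA and TEAD factors and TBX20 act in heart muscle, KLF factors bind GC-rich boxes, and CTCF holds chromatin loops. In all, 10 motifs were searched on both strands without mismatch: those spelled out above, GGTGNTGA (TBX20), ACAGGAAGT (ETS), and the longer MEF2 and CTCF motifs. At least 1 of them occurred in 788 members (53.0%) and in 57.04% of the remaining peaks, and matches of different motifs overlapped in 4 members. In the 385466 windows of the same length on chromosome 19, the shares ran from 0.0830% (CTCF) to 21.98% (NFY).

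CCAAT and AGATAAG were less frequent in members. CCAAT occurred in 24.4% of the members and 29.9% of the remaining peaks, a difference of −5.51 points (−7.78 to −3.24), with 21.98% of the windows. AGATAAG occurred in 3.70% and 5.68%, a difference of −1.98 points (−3.05 to −0.912), with 2.19% of the windows. For the other 8 motifs the interval of the difference included 0, among them GGGNGTGGC at 7.33% and 5.99% (0.576% of the windows) and ACATTCC at 4.64% and 3.64% (2.02% of the windows). When the remaining peaks were weighted to the members' GC classes, the CCAAT difference was −2.29 points (−4.50 to −0.0854) and that of AGATAAG was −0.769 (−1.80 to 0.258). At equal GC, ACATTCC was 1.39 points more frequent in members (0.244 to 2.53). Neither call at equal GC held throughout. The CCAAT interval included 0 in 8 of 9 alternatives, with differences from −4.31 to 0.51 points, the last in the opposite direction with a window of 50 kb. The ACATTCC interval included 0 in 4 of 9, with differences from 1.02 to 7.58 points. The intervals are not adjusted for the 10 motifs.

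CAGCTG occurred in 13.9% of the members, 13.1% of the remaining peaks and 5.91% of the windows. In the *Tbx5* to *Rbm19* interval, 4 of 8 members held CCAAT and 3 held CAGCTG, which occurred in both of its peaks printed above. The peaks printed were chosen because they hold searched motifs, so their matches say nothing of how frequent these are.

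**Figure D4:**
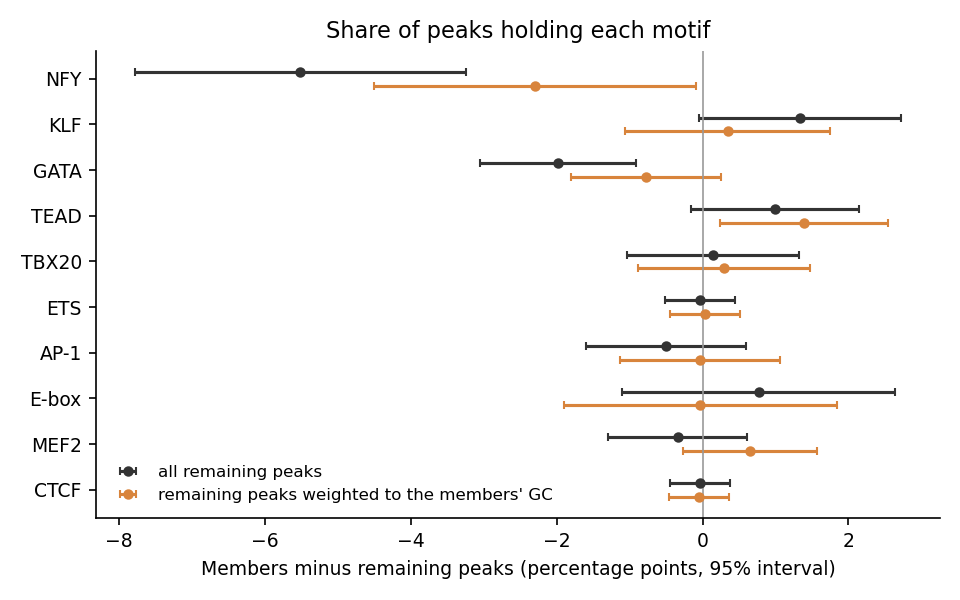
Difference in the share of peaks that hold each motif, members minus remaining peaks, in percentage points with 95% intervals; dark points use all remaining peaks and orange points weight them to the members' GC content. The dark intervals of NFY (−7.78 to −3.24) and GATA (−3.05 to −0.912) lie below 0, and at equal GC those of NFY and TEAD exclude 0.

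Clusters were spread unevenly over chromosomes. Over the 19 autosomes, 11.03% ± 4.29 (SD, n = 19) of a chromosome's peaks were members, from 2.92% on chromosome 16 (12 members) to 18.97% on chromosome 5 (158 members), and on the X chromosome 4.41% were. Across the autosomes the share of members was higher where coding genes were denser (Spearman's rho = 0.663, Pearson's r = 0.424, n = 19), which is a description without a test, since the chromosomes come from the same peak list and the share was also higher on those with more peaks per Mb (rho = 0.646). Chromosome 8 had the most clusters per length, 41.7 per 100 Mb. Members had the higher promoter share on 15 of the 19 autosomes and the higher GC content on 17. The last 10 Mb of the chromosomes held 15.5% of the members and 12.03% of the remaining peaks, a difference of 3.43 points (0.166 to 6.69), which was 1.66 points (−1.58 to 4.91) without chromosome 8. The megabase with most members, 18 in 6 clusters, was at 19 to 20 Mb of chromosome 7 and contains *Ckm*, *Apoe* and *Bcl3*, and the next, at 134 to 135 Mb of chromosome 4, had 16 members in 5 clusters, at *Lin28a* and *Trim63* among others.

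**Figure D5:**
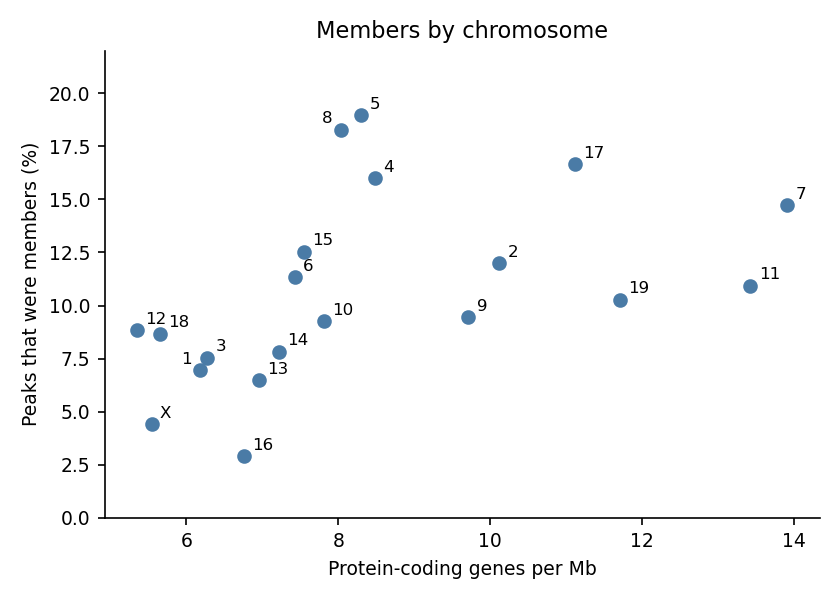
Share of a chromosome's peaks that were members, in percent, against its protein-coding genes per Mb, 1 point per chromosome labelled with its name. Chromosomes 5 (18.97%) and 8 (18.3%) have the highest shares, chromosome 16 the lowest (2.92%), and shares tend to be higher on chromosomes with more genes per Mb (Spearman's rho = 0.663 over 19 autosomes), although the most gene-rich ones, 7, 11 and 19, do not have the highest.

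Genes known for muscle and for the heart were looked up in 14 lists. A member lay within 3 kb of a start site of 313 of 21911 protein-coding genes (1.43%), and each list's count is read against this. Of 19 genes of fast skeletal muscle, 3 had such a peak, and 12 (63.2%) had any *Chd4-CMko*-enriched peak there, against 12.4% of all coding genes. That share was above 12.4% in 11 of the 14 lists, among them NuRD subunits (46.7%), neuronal genes (43.8%) and cardiomyocyte genes (33.3%), so it was not particular to skeletal muscle. *Ckm*, the muscle creatine kinase, lay in a cluster with *Klc3* whose 3 members scored 235.5, 234 and 268.5. *Ryr1*, the calcium release channel of skeletal muscle, had 3 members within the gene, at 157, 77 and 88. *Tnnt3*, the fast skeletal troponin T, had 1 member 69 bp from its start site, with a score of 89.5. The member at 235.5 lay 4797 bp from the *Ckm* start site, so it cannot be given to *Ckm* by distance. Those at 234 and 268.5, within 3 kb of it, scored higher than the members listed at *Ryr1* and *Tnnt3*. The cluster of *Tnnt3*, which it shares with *Lsp1*, held another member that is left out here.

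Of 27 cardiomyocyte genes, only *Tnni3*, the cardiac troponin I, had a member within 3 kb. The 3 members of its cluster scored 190.5, 150.5 and 168, and 2 edge peaks brought the cluster to 5 peaks. *Tnnt1*, the slow skeletal troponin T, had a start site within 3 kb of a member of the same cluster, so the peaks cannot be given to 1 of these genes by distance. Of the 39 *Hox* genes, *Hoxa4*, *Hoxa5* and *Hoxa7* had a member within 3 kb, all from the 1 cluster described above.

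The other lists held 1 gene or none. Of 16 neuronal genes, *Nefm*, a neurofilament subunit, had 2 members within 3 kb, with scores of 134 and 154. Of 15 NuRD subunits, *Chd5*, a relative of *Chd4* found mainly in neurons, had 1 promoter member and 1 in an exon, at 205.5 and 220. *Hk1*, an enzyme of the first step of glycolysis, had 1 member at 230.5 (1 of 22 glycolysis genes), and *Ndufa4l2*, a mitochondrial protein induced by low oxygen, had 1 at 164 (1 of 23 genes of the hypoxia response). No member lay within 3 kb of a start site in 30 cardiac developmental transcription factors, 14 smooth muscle genes, 18 endothelial, 16 epicardial and mesenchymal, 18 erythroid, 24 Notch pathway and 25 histone genes. At 1.43% of all genes, less than 1 gene would be found in lists of this size, so these zeros carry little. Over whole gene bodies with 10 kb on each side, where 2.82% of all coding genes had a member, 17 list genes had one in place of 11. The added ones were *Hoxa3*, *Hoxa6*, *Hoxa9*, *Rbfox3*, *Slc17a7* and *Nfatc1*, and *Rbfox3*, the neuronal splicing factor NeuN, had 3 intronic members scoring 134, 120.5 and 113.

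Peaks that were more open in WT hearts lay close to similar shares of members and remaining peaks. The share at random positions of the genome was not computed. A WT-enriched peak lay within 20 kb of 62 members (4.17%) and of 556 remaining peaks (4.83%), a difference of −0.667 points (−2.21 to 0.880). Within 50 kb the difference was −0.698 points (−3.43 to 2.03). Of the 575 clusters, 33 (5.74%) had a WT-enriched peak within 20 kb of their span, and among the 36 clusters of 5 or more members these were the *Sez6l* cluster and the one at *Nyap1* and *Tsc22d4*. Applied to the 2745 WT-enriched peaks themselves, the same rule found 24 peaks (0.874%) in 11 clusters, the largest with 4 members at *Hbb-y*, an embryonic globin gene. The WT list was 4.73 times smaller, so fewer neighbours arise within a fixed distance and the 2 shares are not compared.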

How the data were processed

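ATAC-seq was done on 8 samples of E10.5 hearts, 4 WT and 4 *Chd4-CMko*. Per the labels and the study's methods, reads were mapped on mm10 by BWA-MEM. The authors used HOMER 4.10.3 to find peaks, kept differential peaks past a fold threshold and annotated them with ChIPseeker 1.20.0. Read filters, the Tn5 shift, the way samples were combined and the scale of the score were not given in the sources used here. The authors deposited BED lists with a position and a score for each peak, and no counts per sample.

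Peaks were annotated with GENCODE vM21 and the GRCm38 sequence in Python 3.11.15 (numpy 2.4.6, pandas 2.3.3). A peak was classed in the order promoter (within 3 kb of a start site), untranslated region, exon, intron and intergenic. Differences are members minus remaining peaks, with 95% intervals from a linear model whose errors are clustered on runs of peaks at most 20 kb apart. The functions were tested on simulated data. No p-value was computed. The clusters named are the 10 with most members, the 5 with most members inside 1 gene, the 5 with most genes at promoters and, of those with 5 or more members, the 3 densest and the 3 with the highest median score, and all list genes with a member within 3 kb are named. Of these clusters, 2 are not reported here. The members, the 14 gene lists and the motifs were chosen with earlier results of these data known. The genes holding most members, the megabases and the genes found over gene bodies were named after their values were seen.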

Additional observations from a re-analysis of the deposited data

How the results depend on the processing

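The lists give 1 score per peak and no value per sample, so leaving out replicates and any comparison between genotypes could not be run. No paired analysis was possible because the deposited lists carry no value for a single sample. The lists do not give the depth reached per sample, and the intervals describe spread along the genome, not between embryos.

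The numbers of members and clusters follow the rule: 437 and 205 with a window of 10 kb, 4498 and 1253 with 50 kb, 65 and 30 with at least 4 other peaks, and 651 and 233 among peaks at or above the median score. The higher promoter share kept its direction under every alternative, but its interval included 0 with at least 4 other peaks (4.52 points), with peaks within 1 kb joined (3.33) and, in analyses added after seeing the data, with remaining peaks weighted to the members' gene density (1.23) or GC classes (1.99). Leaving out each autosome in turn, also added later, gave 4.59 (without chromosome 7) to 7.62 points (without chromosome 2). The higher GC content kept its direction except when weighted to local GC (−0.0436 points, added later). The differences in gene density and local GC kept direction and side. The WT-list difference was −1.29 points with a window of 50 kb, with an interval below 0.

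The number of motifs whose share differed was 2, but 4 with at least 4 other peaks and 3 with a window of 50 kb, with edge peaks added and with repeat-covered peaks left out. At equal GC it was 2, but 3 with a window of 50 kb, 0 with a window of 10 kb, with at least 4 other peaks, at or above the median score and without promoter peaks, and 1 with peaks within 1 kb joined or repeat-covered peaks left out. At equal GC the CCAAT difference turned to 0.51 points with a window of 50 kb. With at least 4 other peaks the intronic difference turned to 3.94 points and that of TBX20 to −3.12, and without repeat-covered peaks the difference in repeat cover was 0.0718. Of list genes, 11 had a member within 3 kb and 17 within gene bodies and 10 kb. Of 258 alternative values of differences with an interval, 189 kept both the direction and the side of 0, 31 kept only the direction and 38 changed direction, 34 of these in differences whose interval had included 0.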
